A study of Mus musculus with 10 samples.

Results

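Oligodendrocyte precursor cells (OPCs) made up 473 of the 20503 nuclei sequenced from punches of the PVT, the paraventricular nucleus of the mouse thalamus, which also took in its neighbouring regions. They are the nuclei whose cluster name in the deposited metadata contains OPC, and no further selection was made. The mice were C57BL/6J, aged 12 weeks, untreated as far as the labels say, and the methods describe a pool of 4 mice for each sample, so that a library is a pool and not an animal. There were 10 libraries, of which 6 are labelled female. The labels of the other 4 give a replicate number and no sex, and the deposited metadata names all of their nuclei male. RNA was captured in droplets with a barcode for each nucleus and a unique molecular identifier (UMI) for each molecule, so a count is a number of molecules.

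OPCs are the glial cells that divide in the adult brain and give rise to the oligodendrocytes that wrap axons in myelin. They carry the receptor for platelet-derived growth factor (*Pdgfra*), the proteoglycan NG2 (*Cspg4*) and, unlike most other glia, receive synapses from neurons. When they differentiate they lose these receptors, pass through a short committed stage and then switch on the genes of the myelin sheath, under transcription factors such as *Olig2*, *Sox10* and *Myrf*.

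The number of OPCs and their depth differed widely between libraries. Male libraries 1 to 4 held 2, 36, 73 and 18 OPCs among 895, 875, 4019 and 7213 nuclei. Female libraries 1 to 6 held 49, 55, 68, 52, 72 and 48 among 1381, 1150, 1211, 1049, 1615 and 1095 nuclei. Male libraries 1 and 4 were thus almost without OPCs, and male library 4, the one with the most nuclei, gave fewer OPCs than any library except male library 1. The libraries held between 5119927 and 55956635 UMIs in all, and the OPCs of the 9 libraries with at least 10 of them held 2148069. The 2 OPC nuclei of male library 1 were left out of all sums for cell types.

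Male library 4 also stood apart in what its OPCs expressed, in counts-per-million (CPM) of the summed OPC nuclei. *Pdgfra* was at 405 CPM there and between 974 and 1640 CPM in the other 8 libraries. *Sox10* was at 41.2 CPM against 292 to 512, and *Gpr17* at 61.8 CPM against 291 to 491. The 16 OPC markers of the list used here summed to 13300 CPM in male library 4 and to between 21600 and 27600 in the other 8. Markers of neurons went the other way, with 7750 CPM for the list of 11 against 2790 to 5430. *Rbfox3*, which encodes the neuronal protein NeuN, had a UMI in 8 of the 18 OPC nuclei of male library 4 (44.4%) and in 1.92% to 13.7% in the others, and 16 of the 18 had a *Pdgfra* UMI. These 18 nuclei also had the highest median UMI number of the 9 libraries with at least 10 OPCs, and at 1500 UMIs per nucleus *Rbfox3* was found in 2 of 14 (14.3%) against 0% to 5.63%. The part of neuronal RNA in these 18 nuclei was not tested, and counts of list members called against oligodendrocytes are given without that library where they change. Without it the median log2 differences from oligodendrocytes of 16 lists with 5 or more tested genes, markers of other cell types and sex genes not counted, moved by at most 0.19. Those of the other cell types moved further for markers of neurons (0.12 to -0.18), endothelial cells (-0.07 to -0.48), mural cells (-0.15 to 0.12) and fibroblasts (-0.06 to 0.14), and 31 of 391 listed genes moved by more than 0.5. Of 46 barcode sequences found in more than 1 library, 4 belonged to OPC nuclei. Scrublet, which looks for nuclei that resemble a sum of 2 others, called 16 of 473 OPC nuclei doublets. Among all 20503 nuclei it called 198 (0.966%), so OPCs were called more often than nuclei of all types together. Of the 16, 7 were among the 68 OPCs of female library 3 and 2 among the 18 of male library 4.

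The OPC share of nuclei was 1.6% ± 1.83 (SD, n = 4) in male and 4.62% ± 0.688 (SD, n = 6) in female libraries, a difference of 3.02 percentage points (exact permutation test over 210 splits, two-sided, p = 0.00952). For single libraries the share was 0.223%, 4.11%, 1.82% and 0.25% in male libraries 1 to 4. In female libraries it was 3.55% at the lowest and 5.62% at the highest. The groups overlapped only through male library 2. Relative to mature oligodendrocytes there were 13.2 ± 14.2 OPCs per 100 in male and 45.7 ± 10.6 in female libraries (exact permutation test, p = 0.00952), with 2.7, 31.9, 16.6 and 1.71 in male libraries 1 to 4 and 30.1 to 61.8 in female ones. The oligodendrocytes themselves made up 11.7% ± 2.72 of male and 10.3% ± 1.07 of female nuclei (exact permutation test, p = 0.31). Without male libraries 1 and 4, a choice made after their values were seen, the OPC share was 2.97% ± 1.62 (n = 2) in male libraries (exact permutation test over 28 splits, p = 0.0714), and the ratio was 24.2 ± 10.8 per 100 with the same p. The percent of mitochondrial UMIs was also lower in male libraries, except in male library 2. Its median over OPC nuclei was 0.644, 2.22, 0.341 and 0.406 in male libraries 1 to 4 and 2.05 to 2.78 in female ones. Among male libraries 1, 3 and 4 it did not follow the share, and the value of male library 1 rests on 2 nuclei. In nuclei of at most 2% mitochondrial UMIs the OPC share was 1.23% ± 1.2 (n = 4) in male and 2.8% ± 0.523 (n = 6) in female libraries (exact permutation test, p = 0.0143), and over all 10 libraries it was 2.17% against 3.42%. The ratio in these nuclei was 11.8 ± 11.5 and 45.1 ± 13.7 per 100 oligodendrocytes (exact permutation test, p = 0.00476). OPC depth and the set of genes counted changed with sex in these libraries and cannot be told apart from it. The mitochondrial percent did so except in male library 2, which lay within the female range. Its part in the share was not tested. Outside the OPC cluster, nuclei with 3 or more *Pdgfra* UMIs numbered 1 of 893 in male library 1, 1 of 7195 in male library 4, and between 0 and 6 in the other libraries.

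**Figure D1:**
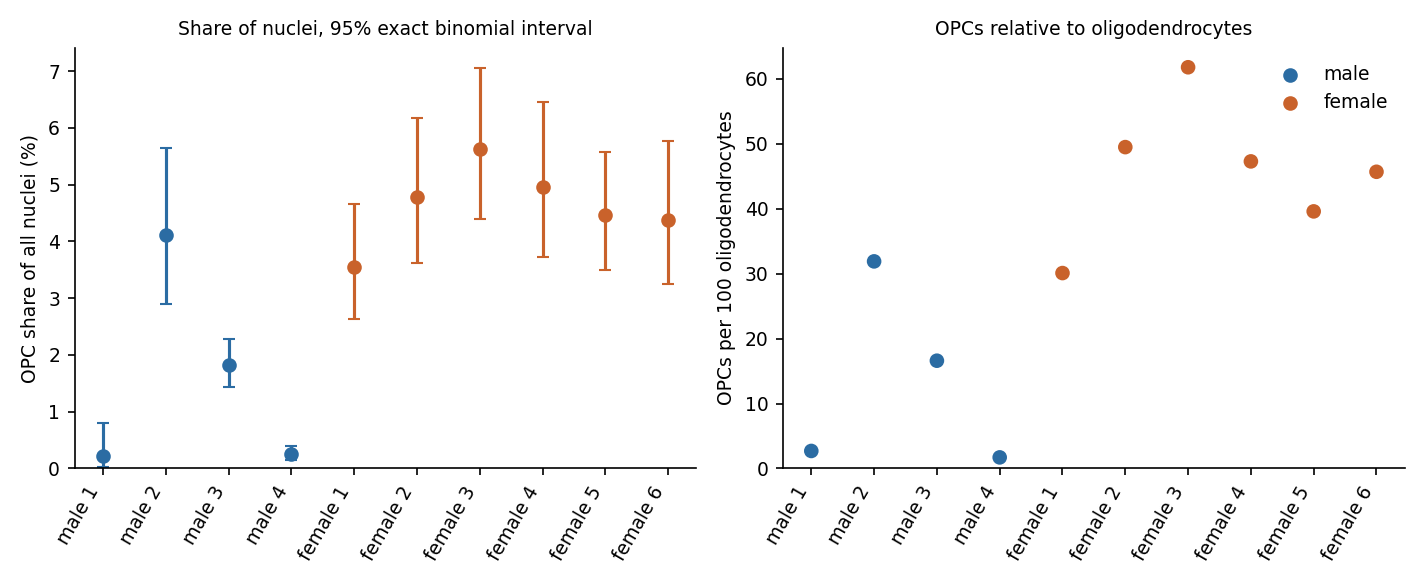
OPC share of all nuclei in percent, with the 95% exact binomial interval (left), and OPCs per 100 oligodendrocytes (right), for each of the 10 libraries, male in blue and female in orange. Male libraries 1 and 4 lie at 0.223% and 0.25%, and the female libraries lie between 3.55% and 5.62%. The intervals cover counting error only.

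An OPC nucleus yielded more RNA than an oligodendrocyte nucleus of the same library. The median was 4096 ± 1639 UMIs (mean and SD of 9 library medians) for OPCs and 2067 ± 623.2 for oligodendrocytes, with OPCs higher in 9 of 9 libraries by 2028 ± 1317 (exact sign-flip test over 512 sign patterns, two-sided, p = 0.00391, the smallest that 9 libraries allow). OPCs also had more genes detected, 2167 ± 645.7 against 1221 ± 308.3 per nucleus (exact sign-flip test, p = 0.00391). Over all nuclei the median of OPCs was 3658 UMIs, next to 3006.5 in astrocytes and 11157 in neurons. Male OPCs had been counted more deeply, the mean of the library medians being 5940 UMIs against 3180 in female ones (exact permutation test over 84 splits, p = 0.0119).

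The study named the cluster by *Pdgfra*, so that its level there is a description and no independent check. It was counted in nuclei brought to an equal depth of 1500 UMIs, which left 437 OPC nuclei and left out 36. Under this depth 79.0% ± 10.8 of OPC nuclei had a *Pdgfra* UMI (SD over 9 libraries), against 0.563% of oligodendrocytes, 0.438% of astrocytes and 0.133% of neurons. Fibroblasts, which also carry the receptor, had one in 16.4% ± 7.79 (n = 5). Without thinning, 94.1% of OPC nuclei had a *Pdgfra* UMI. The share was 98.4% for *Lhfpl3*, a membrane protein of unclear role, 94.7% for the matrix glycoprotein tenascin-R (*Tnr*) and 96.0% for the phosphatase receptor *Ptprz1*. Of these genes *Ptprz1* was found as often in astrocytes (92.9%), and *Lhfpl3* and *Tnr* were also found in neurons (80.2% and 55.7%). *Vcan* (70.3%), *Cspg4* (53.3%), *Gpr17* (38.0%) and *C1ql1* (34.0%) were found in fewer OPCs and in at most 2.46% of oligodendrocytes. *Mog*, a protein of mature myelin, was found in 0.535% of OPCs and 0.604% of astrocytes against 77.8% of oligodendrocytes.

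Free RNA in the droplets may set a floor for such shares, and its level was not measured. *Rbfox3* was found in 3.78% ± 4.48 of OPCs, 2.94% of oligodendrocytes and 2.44% of astrocytes, and *Syt1*, the synaptic vesicle calcium sensor, in 20.7%, 20.7% and 15.9%, against 28.7% and 82.6% in neurons. No expression in OPCs is read from these shares. The summed neuron list was nevertheless higher in OPCs (4010 CPM) than in oligodendrocytes (1760) or astrocytes (1520), with 15300 in neurons. The most abundant of its 11 genes in OPCs was *Rbfox1* with 5109 UMIs. Against oligodendrocytes 2 of its 7 tested genes were higher, *Rbfox1* (log2 difference 2.77) and *Snap25* (0.93). Of the rest 5 passed no threshold and 0 were lower, where over all genes 22.6% were higher and 19.3% lower. The astrocyte list of 10 summed to 1130 CPM in OPCs and 10700 in astrocytes, with *Slc1a2* the most abundant (1343 UMIs). The microglia list of 9 summed to 187 in OPCs and 14700 in microglia. Of vascular, fibroblast and ependymal markers none reached more than 32 UMIs over all OPCs (*Tmem212*), and *Dcn* and *Slc6a13* were at 0.

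The starts of 3 of the marker genes are shown because the lineage factors SOX10 and OLIG2 are known to bind motifs of the kinds searched here. Each stretch is the 250 bases before the start that the RefSeq table lists for the gene, on the plus strand in GRCm38.p6. For *Pdgfra* that start lies inside the span given for the gene, and the *Tnr* stretch runs past the first base of the span. The stretches are printed with capitals for matches to a SOX motif (ACAAAG or, on the other strand, CTTTGT) or to an E-box (CAGCTG, which reads the same on both strands). *Pdgfra* lies at chromosome 5, 75151322 to 75198206, *Lhfpl3* at chromosome 5, 22746054 to 23275597, and *Tnr* at chromosome 1, 159523729 to 159931729. The stretches are at chr5:75152001-75152250, chr5:22745804-22746053 and chr1:159523519-159523768, in that order.
Pdgfra: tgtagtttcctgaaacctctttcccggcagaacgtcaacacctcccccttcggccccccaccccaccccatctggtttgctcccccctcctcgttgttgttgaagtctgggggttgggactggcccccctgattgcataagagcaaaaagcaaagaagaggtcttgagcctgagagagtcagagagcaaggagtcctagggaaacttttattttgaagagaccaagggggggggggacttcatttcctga
Lhfpl3: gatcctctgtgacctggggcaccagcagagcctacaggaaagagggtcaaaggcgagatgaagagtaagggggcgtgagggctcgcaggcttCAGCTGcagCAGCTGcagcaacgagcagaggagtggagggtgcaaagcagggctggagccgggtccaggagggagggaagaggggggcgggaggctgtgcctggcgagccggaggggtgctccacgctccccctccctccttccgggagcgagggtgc
Tnr: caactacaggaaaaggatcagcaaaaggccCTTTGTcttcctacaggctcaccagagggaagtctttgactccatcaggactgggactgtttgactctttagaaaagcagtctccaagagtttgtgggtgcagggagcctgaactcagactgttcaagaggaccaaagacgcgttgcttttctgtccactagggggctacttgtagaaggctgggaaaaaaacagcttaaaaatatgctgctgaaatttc
The *Lhfpl3* stretch held 2 E-boxes, the *Tnr* stretch 1 SOX motif and the *Pdgfra* stretch neither. Among genes higher in OPCs than in every other type, 96 of 133 had such a stretch in the table. The SOX letters were in 9 of the 96 (9.38%) and in 11.7% of the 7581 tested genes with an entry, and the E-box letters in 12 (12.5%) and 11.5%. These shares are near those of all genes tested.

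UMIs were summed for each library and cell type and compared across 9842 genes with edgeR, with the library as a block. As the clusters had been formed from the same counts, these differences describe the clusters and are no independent evidence that they differ. To be called, a gene had to differ by more than 0.5 on the log2 scale with an adjusted p below 0.05. Against the mean of the 7 other types 1975 genes were higher in OPCs, which is 20.1% of those tested, and against oligodendrocytes 2220 were higher (22.6%) and 1898 lower (19.3%). The median log2 difference from oligodendrocytes over all genes was -0.01. Against each of the other 6 types the share called in either direction ran from 30.7% (fibroblasts) and 38.3% (astrocytes) to 50.5% (neurons). Without male library 4 the 3 counts were 2063, 2192 and 1858, and of 391 listed genes 375 had the same call against oligodendrocytes, 16 were called in only 1 of the fits and 0 changed direction.

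All 16 OPC markers were higher in OPCs than in oligodendrocytes (22.6% over all genes), with a median log2 difference of 5.19. By more than 1 on the log2 scale, 13 of them were higher than in every other type, where 1.35% of all genes were. *Pdgfra* had a lowest, median and highest level of 405, 1290 and 1640 CPM in OPCs and of 0, 2.97 and 22.1 CPM in oligodendrocytes of the same 9 libraries, and the log2 difference was 8.02 ± 0.33 (SE). The groups did not overlap, and male library 4 was the lowest of the OPC sums. Without that library the difference was 8.43. Fibroblasts, at 162 ± 107 CPM (n = 8), were the type nearest to OPCs for *Pdgfra*, with a log2 difference of 3.01. *C1ql1*, which encodes a secreted complement-related protein, was at 61.8, 415 and 591 CPM in OPCs and at 0, 0 and 6.12 CPM in oligodendrocytes (log2 7.08 ± 0.33, and 8.22 without male library 4). *C1ql1* stood at a mean of at most 2.2 CPM in every other type. *Cspg4* was at 172, 534 and 623 CPM against 4.46, 13.9 and 44.2 CPM (log2 4.94). *Lhfpl3* was at 3590, 4670 and 5500 CPM against 88.5, 115 and 329 CPM (log2 5.34), and male library 4 was within the range of the others for it. Neurons held *Lhfpl3* at 1890 ± 444 CPM (n = 10), so that this gene marks OPCs among glia and less so among all nuclei.

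**Figure D2:**
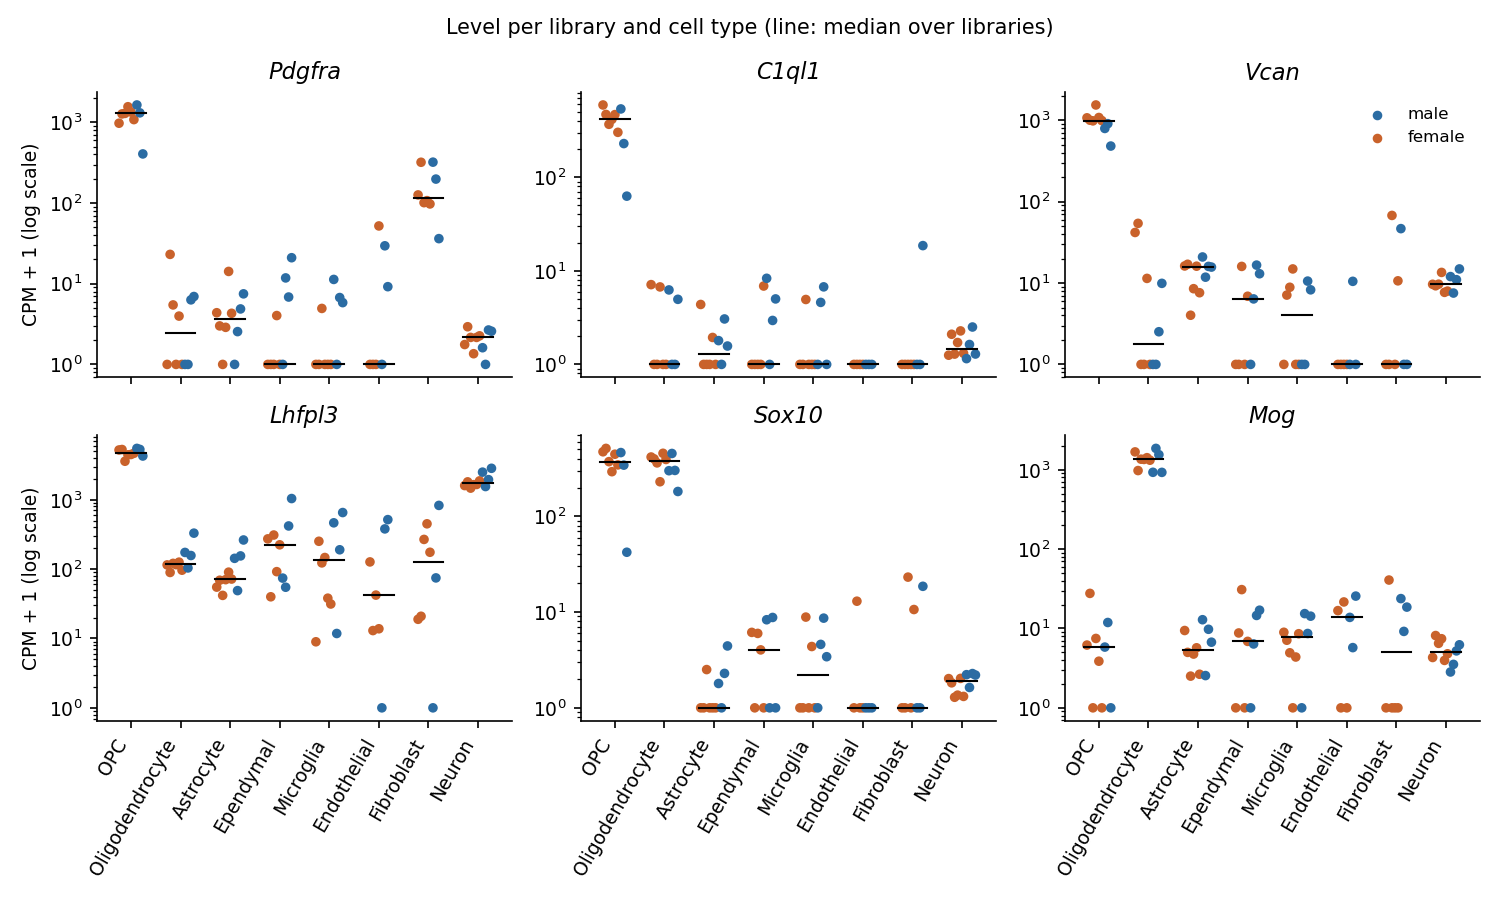
Level of 6 genes in each library and cell type, in CPM + 1 on a log scale, male libraries in blue and female in orange, with a line at the median over libraries. *Pdgfra*, *C1ql1* and *Vcan* are highest in OPCs, *Lhfpl3* is also seen in neurons, *Sox10* is at like levels in OPCs and oligodendrocytes, and *Mog* is high in oligodendrocytes alone. The lowest OPC point for *Pdgfra* (405 CPM) and *Sox10* (41.2 CPM) is male library 4.

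The 133 genes higher in OPCs than in each of the 7 other types were, with male library 4 left out, 146, of which 131 were shared. Ranked by the smallest of the 7 differences, *C1ql1* led with 7.08, followed by the proteoglycan versican (*Vcan*), with a smallest difference of 5.93 (fibroblasts). *Vcan* was at 481, 989 and 1540 CPM in OPCs and at 0, 1.52 and 53.1 CPM in oligodendrocytes. Next came *Susd5* (smallest difference 5.92), *Tmem255b* (5.73), the sialidase *Neu4* (5.36), *A930009A15Rik* (5.25), the sulfotransferase *Chst5* (5.21), the guanylate cyclase *Gucy2f* (4.77), *Scel* (4.77) and *Gpr17* (4.50), an orphan receptor of differentiating precursors. The other 10 of the first 20 were *Emid1*, *Rlbp1*, *Gm38505*, *Shc4*, *Gm2164*, *Cdo1*, *6330576A10Rik*, the Wnt receptor *Fzd9*, *Pdgfra* and the proteoglycan *Cspg5*, with smallest differences from 4.33 down to 2.99. For *Gucy2f* and *Rlbp1*, better known from the retina, the OPC means were 78.6 and 96.0 CPM, and no other type had a mean above 2.77 CPM for the first or 5.52 CPM for the second.

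Of 29 transcription factors of the lineage tested, 17 were higher in OPCs than in oligodendrocytes (22.6% over all genes) and 6 lower (19.3% over all genes, a share near that of the list), with a median log2 difference of 0.91. *Sox10*, which both stages need, was at 41.2, 372 and 512 CPM in OPCs and 181, 392 and 455 CPM in oligodendrocytes, and the log2 difference of 0.05 ± 0.17 (SE) passed no threshold. *Olig2* was at 41.2, 282 and 574 CPM against 42.1, 83.1 and 156 CPM (log2 1.87), and *Olig1* at 61.8, 673 and 951 CPM against 159, 329 and 535 CPM (log2 0.91). For all 3 of these genes male library 4 was the lowest OPC sum. The groups overlapped, for *Olig2* only through that library. *Zeb1*, a repressor known from stem and precursor cells, was at 1150, 1630 and 1950 CPM against 17.2, 53.5 and 128 CPM with no overlap (log2 4.87). Clear differences of the same direction were seen for *Sox5* (5.16) and *Sox6* (4.74), which hold back differentiation, for *Prrx1* (5.18), the zinc finger factor *Myt1* (5.07), *Etv5* (4.40) and the Notch target *Hes5* (3.79). The 6 lower ones were *St18* (-6.07), *Nkx6-2* (-4.23), *Myrf* (-4.03), the master regulator of myelin genes, *Zfp536* (-2.56), *Nfix* (-1.43) and *Klf9* (-0.87). *Myrf* was at 0, 11.5 and 22.3 CPM in OPCs and 149, 186 and 241 CPM in oligodendrocytes.

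Of the genes of myelin and mature oligodendrocytes, 26 of 26 were lower in OPCs (19.3% over all genes), with a median log2 difference of -6.22. *Mog* was at 0, 4.83 and 26.7 CPM in OPCs and 927, 1360 and 1860 CPM in oligodendrocytes (log2 -7.62). *Mbp*, the basic protein that compacts the sheath, was at 48.1, 93.3 and 343 CPM against 3530, 4340 and 5060 CPM (log2 -5.20). Neither pair of groups overlapped. At 1500 UMIs per nucleus *Mbp* was found in 11.1% of OPCs, 7.15% of astrocytes and 7.49% of neurons against 98.6% of oligodendrocytes. Against the mean of the other types, in which oligodendrocytes count as 1 of 7, 7 of the 26 were higher in OPCs and 14 lower. Over all genes 20.1% were higher than this mean, and 1312 of 9842 were lower.

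**Figure D3:**
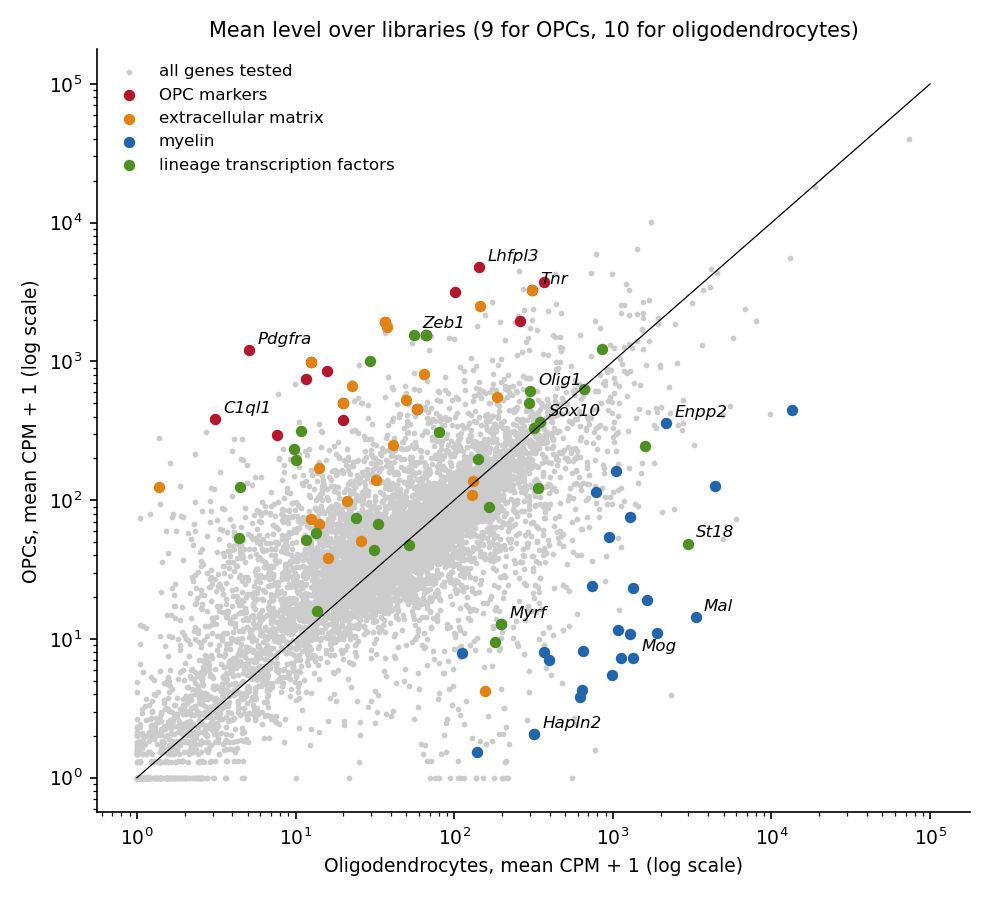
Mean level of each of the 9842 genes tested in OPCs (vertical, 9 libraries) and oligodendrocytes (horizontal, 10 libraries), in CPM + 1 on log scales, with 4 gene lists in colour and a line of equal levels. Myelin genes lie below the line, OPC markers above it, and *Sox10* near it.

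Ranked by size, the genes most above oligodendrocytes were *Tmem255b* (log2 8.51), *Scel* (8.41), *Emid1* (8.12), *Pdgfra* (8.02), *Etv4* (7.89), *C1ql1* (7.08), *Gucy2f* (7.04), *Gm15581* (7.02), the fibrillar collagen *Col11a1* (6.98, and 7.80 without male library 4), *Stk32a* (6.94), *Lmcd1* (6.88) and *Rlbp1* (6.80). Each was higher in OPCs in 9 of 9 libraries. *Etv4*, a transcription factor downstream of growth factor receptors, was at 82.4 CPM in the lowest, 192 in the median and 232 CPM in the highest OPC sum, with a mean of 0.617 CPM in oligodendrocytes. Of the 12 genes most below oligodendrocytes, 11 had 0 UMIs in all 2148069 UMIs of the OPC sums, so that only a lower bound of the fold can be given, against 3 counts over the group (1.4 CPM). *Sec14l5* had 3279 UMIs in oligodendrocytes and was at least 351-fold lower in OPCs, *Fbxw15* at least 125-fold, the troponin gene *Tnni1* at least 89.2-fold, *Cyp2j12* at least 88.2-fold, *Slc7a15* at least 71-fold and *Trim36* at least 55.6-fold. *Gm44866*, *Gm42756*, *Gm36855*, *Gm816* and *Gm48508* were at least 144, 135, 105, 83.5 and 68.4-fold lower. *C030029H02Rik* had 1 UMI in OPCs and 4349 in oligodendrocytes. None of these 12 genes is a member of the myelin list.

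Genes held in common by OPCs and oligodendrocytes were fewer. By more than 1 on the log2 scale, 44 genes (0.447%) were higher in both types than in each of the other 6, and 47 without male library 4. The 10 with the largest smallest difference were *Sox10*, the adhesion molecule *Dscaml1*, the gap junction gene *Gjc3*, *Pou3f1*, *Bcas1*, the neuregulin receptor *Erbb3*, *Bcas1os2*, *Ugt8a*, which makes the galactolipids of myelin, *Matn4* and *Ninj2*. Between OPCs and oligodendrocytes these genes differed by 0.07 for *Dscaml1*, -0.79 for *Gjc3*, 0.79 for *Pou3f1*, -0.78 for *Bcas1*, -1.44 for *Erbb3*, -0.64 for *Bcas1os2*, -2.68 for *Ugt8a*, 2.88 for *Matn4* and -2.31 for *Ninj2*. *Bcas1os2* carries the name of an opposite-strand transcript of *Bcas1*, and reads of the pair may not be separable, since the sources used here do not say whether strand was used in counting. *Ugt8a* was already at 75.7, 178 and 200 CPM in OPCs, against 818, 1070 and 1180 CPM in oligodendrocytes and a mean of 8.61 CPM in neurons.

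Matrix genes were the list with the largest median after the OPC markers. Both lists hold *Cspg4*, *Vcan*, *Tnr*, *Xylt1* and *Matn4*, so this rank follows in part from the choice of genes. Other lists share genes with the OPC markers too. Of 24 tested, 20 were higher in OPCs than in oligodendrocytes (19 without male library 4) and 2 lower, with a median log2 difference of 2.79. Of the 24, 9 were higher than in every other type. Over all genes 22.6% were higher than in oligodendrocytes, 19.3% lower, and 1.35% higher than in every other type. *Tnr* was at 1780, 3190 and 4340 CPM in OPCs and 34.4, 211 and 1330 CPM in oligodendrocytes (log2 3.77). *Cspg5* (log2 5.48) was at 385, 1850 and 2420 CPM against 5.73, 40.0 and 79.6 CPM. *Xylt1*, the enzyme that starts the sugar chains of proteoglycans, differed by 5.84, *Chst11*, which sulfates chondroitin, by 4.84, *Ncan* by 3.62 and *Bcan* by 3.47. *Chsy3*, which extends chondroitin chains, was not called (-0.22). *Hapln2* (-8.26), a link protein of the node of Ranvier, and the protease *Adamts4* (-5.40) were lower.

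Among receptors for growth factors, 8 of 18 were higher in OPCs than in oligodendrocytes and 4 lower, shares of the list above and near those of all genes (22.6% and 19.3%). Apart from *Pdgfra* and *Ptprz1* (5.04), the neurotrophin receptors *Ntrk3* (4.09) and *Ntrk2* (2.23) and the fibroblast growth factor receptors *Fgfr1* (2.27) and *Fgfr3* (1.12) were higher. *Fgfr2* (-1.83), *Erbb3* (-1.44) and the lipid receptors *Lpar1* (-5.19) and *S1pr5* (-4.60) were lower. The receptors of the fibroblast growth factor family thus lay on different sides. *Fgfr2* was at 179, 330 and 601 CPM in OPCs and 951, 1310 and 1600 CPM in oligodendrocytes with no overlap. *Erbb4* was at 1460, 2010 and 2590 CPM against 1180, 1780 and 2550 CPM and was not called. Of the ligands 13 were tested, 5 were higher, with midkine (*Mdk*, 2.86), *Nrg2* (2.81) and *Nrg3* (2.03) among them, and 1 was lower, the PDGF subunit *Pdgfa* (-1.88).

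Of 24 genes of Notch, BMP and Wnt signalling, 9 were higher (10 without male library 4) and 2 lower, against 22.6% and 19.3% of all genes, with a median log2 difference of 0.48 against -0.01 over all genes. *Notch1* was at 61.8, 106 and 169 CPM in OPCs and 0, 8.16 and 13.3 CPM in oligodendrocytes (log2 3.59), and its ligand *Jag1* (2.94) and its targets *Hes1* (3.70) and *Hes5* were higher as well. The Wnt target *Axin2* was at 46.0, 57.9 and 80.2 CPM against 8.92, 14.8 and 31.0 CPM (log2 1.95), and *Rnf43* (1.19) and *Lingo1* (1.40) were called in the same direction. *Notch2* was lower (-1.08). *Smad7*, an inhibitor of BMP and TGF-beta signals that promotes differentiation, was at 22.3, 44.0 and 58.4 CPM in OPCs against 279, 351 and 493 CPM (log2 -3.16). The OPC and oligodendrocyte sums did not overlap for *Notch1*, *Axin2* or *Smad7*.

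Receptors for neurotransmitters were the next group. Of 26 genes for glutamate receptors and their auxiliary subunits, 15 were higher in OPCs than in oligodendrocytes and 2 lower. Without male library 4 the counts were 14 and 2. Over all genes 22.6% were higher and 19.3% lower. *Cacng4*, an auxiliary subunit of AMPA receptors, was at 488, 730 and 965 CPM against 0, 11.9 and 19.8 CPM (log2 5.99), with a mean of 110 CPM in neurons. The AMPA receptor subunit *Gria2* was at 840, 1020 and 1230 CPM against 103, 171 and 274 CPM (log2 2.64), *Gria3* at 454, 491 and 597 CPM against 6.59, 25.8 and 45.5 CPM (log2 4.26), and *Gria4* was higher by 1.48. None of these groups overlapped. *Gria1*, at 82.1, 213 and 824 CPM against 68.8, 133 and 274 CPM, was not called. The metabotropic receptor *Grm5* was at 901, 1030 and 1300 CPM against 44.1, 122 and 234 CPM (log2 3.18), the NMDA receptor subunit *Grin3a* was higher by 3.56 and the kainate receptor subunit *Grik3* by 3.23. In the other direction *Grm3* was at 20.7, 46 and 234 CPM in OPCs and 868, 1130 and 1840 CPM in oligodendrocytes (log2 -4.26).

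Neurons hold many of the same receptors. The summed neuron list, with 2 of 7 tested genes called, was higher in OPCs than in oligodendrocytes and astrocytes as given. The shares at equal depth are therefore given beside these levels. *Gria2* was found in 74.1% ± 8.86 of OPCs, 72.0% of astrocytes and 67.3% of neurons against 18.4% ± 4.41 of oligodendrocytes. *Grin2a*, an NMDA receptor subunit of neurons, was found in 6.73% ± 11.1 of OPCs, 5.26% of oligodendrocytes and 4.45% of astrocytes against 57.2% of neurons, and no expression in OPCs is read from it. At the same depth *Grin2a* had a UMI in 5 of 14 OPC nuclei of male library 4 (35.7%), and in at most 8.33% in the other 8 libraries with 10 or more OPCs. *Snap25*, a neuronal vesicle fusion gene, lay between, with 33.5% ± 10.6 of OPCs, 17% of oligodendrocytes and 69.0% of neurons. The part of neuronal RNA in the remaining members was not tested. Of 13 genes for GABA receptors 9 were higher in OPCs (22.6% over all genes) and 0 were lower (1 without male library 4, and 19.3% over all genes). Among the higher ones were *Gabra3* (2.00) and *Gabrg3*, at 394, 551 and 618 CPM against 40.1, 79.4 and 173 CPM.

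Ion channels followed the receptors. Of 40 tested, 27 were higher than in oligodendrocytes and 4 lower (24 and 4 without male library 4), with a median log2 difference of 1.26. The shares of all genes were 22.6% higher and 19.3% lower. *Kcnd2*, which carries the A-type potassium current, was at 3060, 4260 and 5730 CPM against 132, 405 and 1010 CPM (log2 3.51). *Kcnip3* (5.24), an accessory protein of this channel, and *Kcnh8* (5.11) were higher in OPCs than in every other type. The inward rectifier *Kcnj16* (3.71), the leak channel *Kcnk10* (3.96) and the sodium channels *Scn3a* (2.65) and *Scn1a* (2.26) were higher too. The potassium channels *Kcna1* (-3.18) and *Kcnj10* (-0.83) and the pacemaker channel *Hcn2* (-2.89) were lower in OPCs. *Kcna1* was at 14.7, 37.4 and 77.8 CPM against 269, 359 and 449 CPM.

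Adhesion molecules of synapses and axon contacts were higher in 24 of 41 cases (25 without male library 4) and lower in 3. Of the 41, 9 were higher than in every other type. The shares of all genes were 22.6%, 19.3% and 1.35%, in that order. *Csmd1* (4.34), *Dscam* (4.17) and the presynaptic neurexin *Nrxn3* (4.09) were among the 9. *Lrrc4c*, a netrin-G ligand, was at 4860, 6600 and 7330 CPM in OPCs against 859, 1330 and 2150 CPM in oligodendrocytes, with no overlap of the groups. *Cntn2* (-5.59) and *Nfasc* (-2.22), molecules of the contact between myelin and axon, were lower in OPCs. Among guidance genes, 16 of 35 were higher (15 without male library 4) and 7 lower, where over all genes 22.6% were higher and 19.3% lower, so that the lower share is near that of all genes. *Ntn1*, which encodes the secreted cue netrin-1, was at 137, 205 and 353 CPM against 0, 0 and 4.95 CPM (log2 6.77, and 8.15 without male library 4), its receptor *Dcc* was higher by 1.46 and its receptor *Unc5b* was lower (-4.62). *Sema5b* (5.07) and *Sema3d* (3.75) were higher than in every other type, and the ephrin *Efnb3* (-4.25) was lower.

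**Figure D4:**
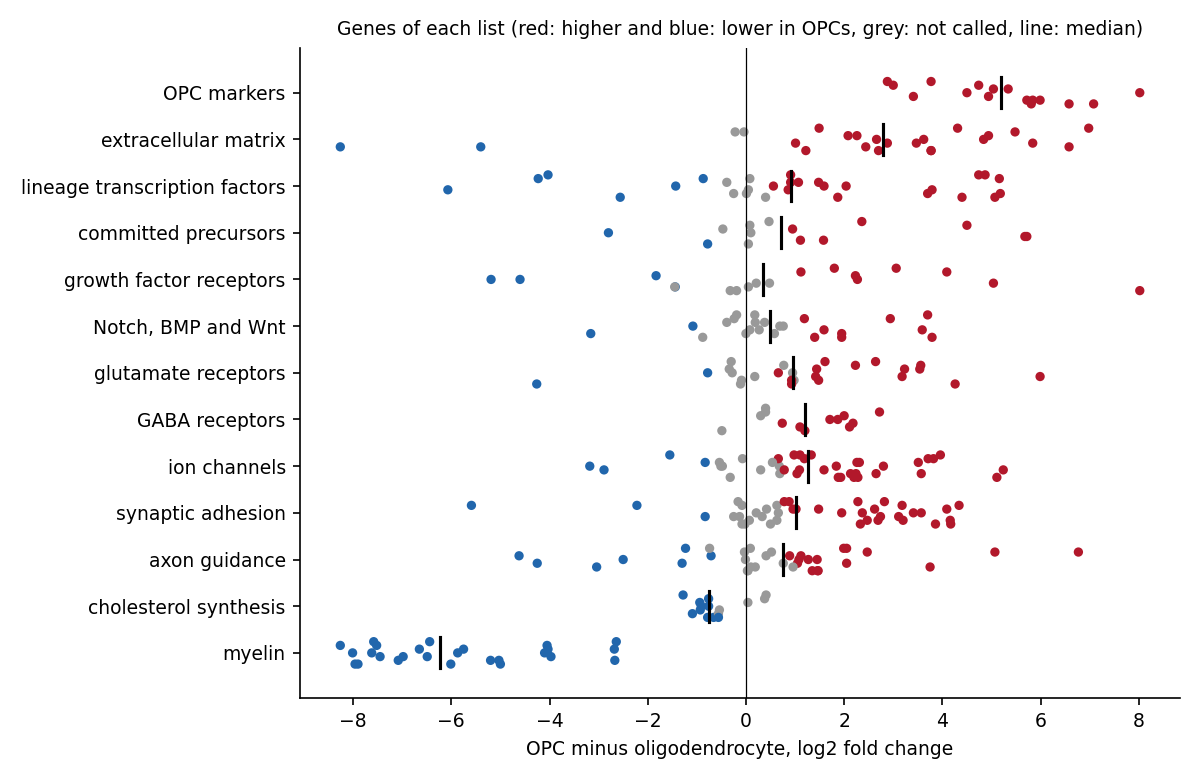
Log2 difference between OPCs and oligodendrocytes for each gene of the lists (horizontal), with red for genes called higher in OPCs, blue for called lower, grey for not called, and a line at the median of each list. The OPC markers (median 5.19) and matrix genes (2.79) lie to the right, myelin genes (-6.22) to the left, and cholesterol genes (-0.76) slightly to the left of 0.

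For cholesterol synthesis 0 of 15 genes were higher in OPCs and 10 were lower (11 without male library 4), against 22.6% and 19.3% of all genes. The median log2 difference was -0.76. *Hmgcs1*, an early enzyme of the pathway, was at 44.5, 67.4 and 172 CPM in OPCs and 132, 168 and 314 CPM in oligodendrocytes (log2 -1.28). Transcription factors that mark brain regions were tested for 13 of 32, with 4 higher, 1 lower (0 without male library 4) and a median of -0.1. Over all genes 22.6% were higher, and 4 of 13 is no result about the list. *Irx2* was at 14.7, 33.4 and 64.8 CPM against 0, 0 and 6.12 CPM (log2 3.26), and *Irx5* (2.36) and *Pax6* (2.23) were higher. *Tcf7l2*, which marks thalamic neurons, was at 229, 301 and 625 CPM against 201, 290 and 770 CPM and was not called. Of immediate early genes, 7 of 14 could be tested, 1 was higher and 1 lower.

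Nuclei with UMIs of several genes of cell division were few, counted without equal depth between nuclei. *Anln* is in both the G2 and M list and the myelin list. Of 26 genes of S phase only 2 passed the filter on low counts, and of 31 genes of G2 and M phase 3 did, so these lists were read in single nuclei, with a threshold chosen after the values had been seen. In 5 of 473 OPCs (1.06%, 95% exact interval 0.344 to 2.45) 5 or more G2 and M genes had a UMI, against 2 of 2462 oligodendrocytes (0.0812%), 0 of 5302 astrocytes (up to 0.0696%), 6 of 993 microglia (0.604%), 6 of 469 ependymal nuclei (1.28%) and 8 of 10410 neurons (0.0768%). The 5 OPCs had 6, 23, 21, 15 and 20 such genes and came from 4 libraries, female 1 (2 nuclei), female 5, male 2 and male 3. All 5 had *Pdgfra* UMIs (2, 7, 5, 2 and 1), and 4 had *Top2a*, the topoisomerase of dividing cells, with 3, 11, 16 and 12 UMIs.

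Of 14 genes of committed precursors tested, 7 were higher in OPCs than in oligodendrocytes (22.6% over all genes) and 2 lower (19.3%), and 11 were higher than the mean of the other types (20.1%). *Itpr2* was at 234, 394 and 469 CPM in OPCs against 17.2, 59.3 and 257 CPM (log2 2.36), and *Bcas1* at 89.3, 567 and 793 CPM against 669, 945 and 1350 CPM (log2 -0.78). *Enpp6*, a marker of newly formed oligodendrocytes, was at 0, 4.77 and 143 CPM in OPCs and 138, 187 and 396 CPM in oligodendrocytes (log2 -2.80). *Bmp4*, which marks the committed stage, was at 0, 10.4 and 98 CPM against 0, 0 and 71.4 CPM (log2 1.58). The *Bmp4* call depended on the libraries and nuclei kept, with values from 1.01 (not called, without female library 5) to 3.34 (without female library 1), and -1.35 in nuclei of at most 2% mitochondrial UMIs. For *Enpp6* and *Bmp4* most OPC sums were near 0 and few libraries were high.

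The high values came from a few nuclei. With a threshold chosen after the values were seen, 7 OPC nuclei from 6 libraries had 2 or more UMIs of *Enpp6* or *Bmp4*. None of the 7 had a *Pdgfra* UMI, although their median was 7828 UMIs, while 21 of the other 466 OPCs (4.51%) had none at a median of 3647.5 UMIs. With 60798 UMIs in the 7 nuclei and 2104831 in the other 466, the levels in CPM were 1510 against 328 for *Gpr17*, 4180 against 438 for *Bcas1*, 1300 against 290 for *Tcf7l2*, 888 against 334 for *Itpr2*, 2520 against 157 for *Sirt2*, 3980 against 323 for *Fyn* and 1510 against 246 for *Tns3*. They also held 2170 against 73.2 for *Mbp* and 82.2 against 4.28 for *Mog*. *Mal* was at 0 against 13.3, levels that 60798 UMIs are too few to tell apart. Genes high in the OPC cluster did not all move one way. *Pdgfra* was at 0 against 1180, *Cspg4* at 65.8 against 496, *Lhfpl3* at 1200 against 4510, *Ptprz1* at 641 against 2980, *Vcan* at 658 against 910, *Olig2* at 247 against 294, *Sox10* at 461 against 350 and *Neu4* at 510 against 275. These are levels over the summed UMIs, to which 3 nuclei with 14523, 14984 and 15179 UMIs gave most. Not every gene was high in each nucleus, and that of female library 3 had 0 *Enpp6*, 0 *Tcf7l2*, 2 *Gpr17* and 1 *Mbp* UMIs of 7828. The levels are a description with no test, since the nuclei were chosen by 2 of these genes. Of the 7, 1 was called a doublet by Scrublet. One of the 7 was in male library 1, where it was 1 of 2 OPC nuclei. Nuclei of oligodendrocytes with 2 or more UMIs of *Bmp4* or *Gpr17* numbered 13. They had 0 *Pdgfra* UMIs, as did 99.1% of the other 2449 oligodendrocytes, and 5 of them were called doublets. *Mal* was at 0 UMIs in 9 of the 13, and 1 nucleus of female library 6 held 305 of their 338 *Mal* UMIs.

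**Figure D5:**
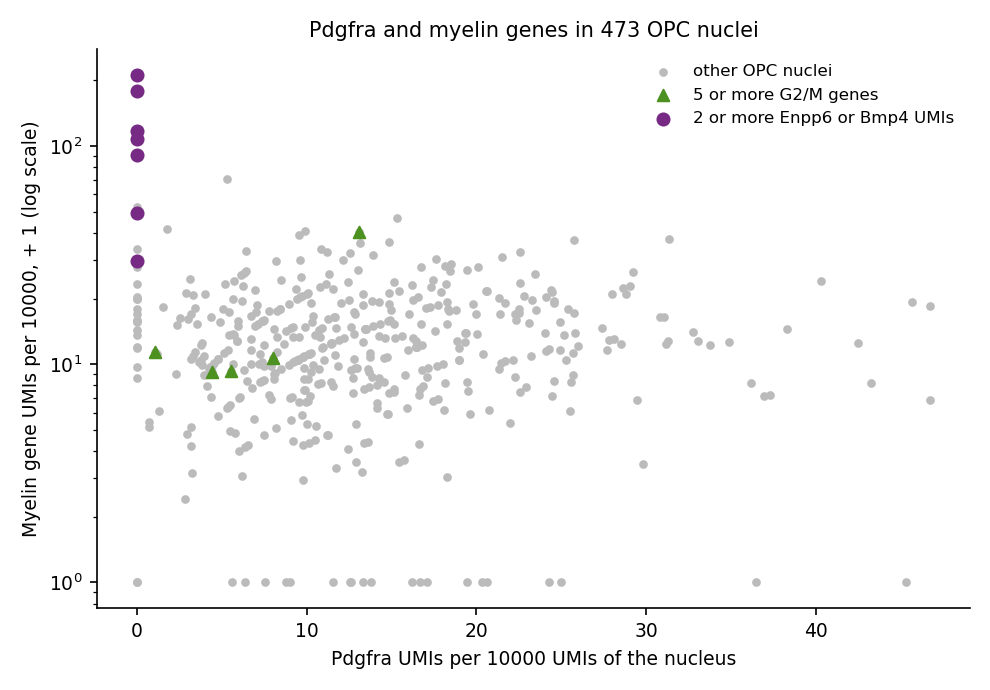
*Pdgfra* UMIs (horizontal) and UMIs of the myelin list + 1 (vertical, log scale), both per 10000 UMIs of the nucleus, for 473 OPC nuclei. The 7 nuclei with 2 or more *Enpp6* or *Bmp4* UMIs (purple) all lie at 0 *Pdgfra*, and the 5 nuclei with 5 or more G2 and M genes (green triangles) all lie above 0.

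OPCs of female and male libraries were compared for 5085 genes counted in both sexes, over 3 male and 6 female sums, and 107 differed (2.1%), with 54 higher and 53 lower in female libraries. The count rested on single libraries: it was 532 without male library 2, 53 without male library 3, 70 without female library 5 and 137 without male library 4. It was 23 with every nucleus thinned to 1500 UMIs, 333 with genes counted in 1 sex included and 504 with no filter on low counts. The median UMI number per OPC nucleus was 5940 ± 1450 in male and 3180 ± 639 in female libraries. *Xist*, the RNA of the inactive X chromosome, was at 0 CPM in all male sums and 1180 to 2300 CPM in female sums, and had 0 UMIs in 129 male and 1997 in 344 female OPCs. *Ddx3y* and *Uty* of the Y chromosome had 51 and 118 UMIs in male OPCs and 2 and 1 in female OPCs. The other genes with the smallest p were *Rpl9-ps6*, *1700030F04Rik*, *Gm11808* and *Kcnq1*, higher in female libraries by 6.82, 7.92, 8.21 and 6.48, and *Prnp*, *Umad1*, *Pabpn1*, *Atf7* and *Stard13*, which differed by -5.96, -6.72, -7.06, -5.52 and -3.30. *Prnp*, the prion protein gene, was at 179, 282 and 247 CPM in male and 0 to 6.49 CPM in female OPCs, and in oligodendrocytes at 362 to 514 CPM and 0 to 11.5 CPM. *Kcnq1*, a potassium channel, was at 0 to 2.71 CPM in male and 114 to 285 CPM in female OPCs. Both genes differed in oligodendrocytes in the same direction. Over all nuclei, 1555 genes had 50 or more UMIs in male and 0 in female nuclei and 509 the reverse. The set of genes counted thus differs with the sex, and a difference in gene annotation may be behind it. The annotations were not compared, and their part in these differences cannot be told apart from sex.

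None of the OPC markers (16 tested), matrix genes (21), lineage transcription factors (26) or glutamate receptors (20) was among the 107, and at a share of 2.1% over all genes this is no result about the lists. Of the other lists on OPC biology, the members called were *Lims2* (1.66 higher in female libraries), the potassium channels *Kcnq1*, *Kcnc2* (-2.13) and *Kcnip4* (-2.75), the adhesion molecule *Ntng1* (-2.36), and *Sema3c* (5.33). *Kcnc2* was at 77.2, 212 and 852 CPM in male and 64.8 to 102 CPM in female OPCs, and *Kcnip4* at 227, 2580 and 11600 CPM and 321 to 1230 CPM, with male library 4 the highest for both. Without that library *Kcnc2* (-0.91), *Kcnip4* (-1.02) and *Ntng1* (-1.04) were not called (edgeR adjusted p = 0.11, 0.3 and 0.25), while *Lims2* (1.45), *Kcnq1* (6.23) and *Sema3c* (8.44) were. The neuron markers had a median of -0.92 and GABA receptors of -0.73 in the same direction, and the part of neuronal RNA in these calls was not tested. *Pdgfra* differed by 0.17 ± 0.31 (SE), *Olig2* by 0.11 ± 0.45 and *Lhfpl3* by -0.09 ± 0.17, and none of the 3 passed the threshold.

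Whether the step from OPC to oligodendrocyte differed between the sexes was tested by an interaction over 7005 genes that compares the types within each library. The test called 3 genes (0.0428%), all with a lower difference in female libraries, and 447 at an unadjusted p under 0.05. Of the 3 called genes, 2 are described. The potassium channel *Kcnk2* was at 68.7 to 141 CPM in male and 150 to 227 CPM in female OPCs, and at 2.94 to 12.9 CPM and 53.1 to 86 CPM in oligodendrocytes (-2.34 ± 0.42, edgeR adjusted p = 0.022, and -3.04 with edgeR adjusted p = 0.0013 without male library 4). *D430041D05Rik* was at 53.1, 138 and 412 CPM in male and 25.9 to 44 CPM in female OPCs, the highest being male library 4 (-2.72 ± 0.45, edgeR adjusted p = 0.011), and without that library the difference was -2.04 and not called (edgeR adjusted p = 0.2). Without male library 4 the test called 2 genes, and without male library 2 it called 18. With nuclei thinned to 1500 UMIs it called 0, and DESeq2 called 1.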

How the data were processed

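The authors aligned and counted the reads of 10x Genomics libraries with Cell Ranger (version 6.1.1 and build mm10 per the submitters' processing notes, while the study's methods name an earlier version) and deposited whole UMI counts of 33502 gene symbols without normalization. They left out doublets, nuclei with few genes and nuclei over their limit of mitochondrial UMIs, and named the clusters. The percent of mitochondrial UMIs was deposited by the authors, and the counts of mitochondrial genes are 0 in male and 562659 in female nuclei. Sums over genes equalled the deposited UMI number in all 20503 nuclei. A further 20 metadata columns were not used, the authors' clustering and doublet scores among them.

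UMIs were summed per library and cell type, sums under 10 nuclei were left out, and edgeR 4.0.16 in R 4.3.3 (TMM, filterByExpr, glmQLFit and glmQLFTest, Benjamini-Hochberg over all genes tested) was fitted with cell type and library. The SE is the log2 difference divided by the square root of F. The sexes were compared on OPC sums, for genes that reached 20 UMIs in both sexes, and by an interaction with library as a block. Genes named from the fit were the 20 with the largest smallest-of-7 difference and the 10 shared by the lineage. Also named were the 12 largest in each direction against oligodendrocytes, with at least 20 CPM in the higher type. These had to have the same sign in every library with both sums. For sex the 5 smallest p in each direction were named. All of these genes were counted in both sexes. The OPC cluster, the gene lists and the rules were chosen with earlier results of these data known. The methods were tested on simulated data. Scrublet ran per library in Python 3.11.15 with scanpy 1.11.5. Shares used nuclei thinned to 1500 UMIs. The labels number the libraries as biological replicates, but the descriptions of male libraries 1 and 2 share the first part of an identifier whose meaning is not given, so p-values measure the spread between these pools. The precision is limited by the 18 to 73 OPC nuclei per sum, and intervals and floors cover counting error only. Alternatives were DESeq2 1.42.0, other filters, normalizations, depths and sets of libraries. Results for a few genes are not reported here.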

Additional observations from a re-analysis of the deposited data

Results flagged for a closer look

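Female library 5 stood apart from the other female libraries in depth, with a median of 4424 UMIs and 2309 genes per OPC nucleus, against 3177 UMIs and 1828 genes in the next highest. *Vcan* was highest in female library 4 with 1540 CPM, and *Fyn* was highest in female library 2 with 878 CPM, each with a wide gap to the other female OPC sums. Of 38 groups of libraries looked at for such gaps 4 had one, and chance gives about 1 in 20. The difference between OPCs and oligodendrocytes differed between the sexes for *D430041D05Rik* (log2 interaction -2.72) and *Kcnk2* (-2.34). The part of gene annotation and depth in these was not tested.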

How the results depend on the processing

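Of 2671 pairs of a named gene and an alternative over 129 genes, 2584 kept their side of an adjusted p of 0.05, and their direction where it was below. Changes of direction with both fits above 0.05 are among these 2584. In 78 pairs the adjusted p rose above 0.05, in 6 it fell below, and 3 turned with at least 1 fit below 0.05. The 3 were *D430041D05Rik* against oligodendrocytes in female libraries alone (-1.20), and *Bmp4* (-1.35) and *Tns3* (-0.15) with nuclei of at most 2% mitochondrial UMIs. With every nucleus thinned to 1500 UMIs the counts were 1279 above the mean of the other types, 1303 above and 1107 below oligodendrocytes, 23 between the sexes and 0 for the interaction (3 in the reported fit), where DESeq2 gave 1 and no filter on low counts gave 30. Male libraries alone gave 1236 above the mean and 29 shared by the lineage. Between the sexes no filter gave 504 genes, and all genes, with those counted in 1 sex, gave 333. The share of OPC nuclei with a *Pdgfra* UMI was 66.9% at 1000 UMIs and 94.1% without thinning. Thinning leaves fewer UMIs in each sum, and the cause of the other changes was not tested.

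Replicate numbers did not pair male with female libraries: deviations of male libraries 2, 3 and 4 correlated with those of the same number at -0.01, -0.044 and -0.058, and at up to 0.195, 0.113 and 0.178 with some female library. With the replicate number as a block, 26 genes differed between the sexes. Without the library as a replicate block the counts between types were 1761, 1924, 1493, 126 and 44.

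Leaving out 1 library at a time gave 1791 to 2063 genes above the mean, 2026 to 2232 above and 1709 to 2129 below oligodendrocytes, 122 to 146 higher than in every other type and 43 to 48 shared by the lineage. It gave 53 to 532 between the sexes and 2 to 18 for the interaction. The OPC share ran from 3.17% to 3.77% over all libraries, OPCs per 100 oligodendrocytes from 29.5 to 36.1, and the excess per OPC nucleus from 1614 to 2173 UMIs and from 802 to 1000 genes.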
